A study of Mus musculus with 2 samples.

Results

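The genes described here are 10 regulators and marker genes of the adipogenic and leptin-receptor-expressing stroma of bone marrow, chosen by name: the transcription factor genes Pparg, Cebpa, Cebpb, Cebpd, Zfp423, Ebf1, Ebf2 and Ebf3, and Adipoq and Lepr, which encode the hormone adiponectin and the receptor of leptin. They are 10 of the 28380 genes listed in the deposited tables, and all of them were detected in both libraries. The study asked how overexpression of the transcription factor Dach1 in bone capillaries affects the cells around them. The transcriptomes of single cells (scRNA-seq) were read from non-haematopoietic cells of the femur and tibia of C57BL/6 mice of both sexes at postnatal day 30, in 1 library per group, each from a pooled pair of tamoxifen-treated mice. The Control mice had the genotype Dach1OE +/f, that is, the inducible Dach1 allele with no Cre. The Dach1OE mice had the genotype Apj CreERT2 - Dach1OE +/f, in which a tamoxifen-activated Cre driven by Aplnr, which the label calls Apj and which capillary endothelial cells (ECs) express, switches the allele on. Per the methods, tamoxifen was given in the first days after birth and the Dach1OE breeding also brought in a fluorescent Cre reporter, R26-mT/mG. The driver is endothelial, so that by design a stromal cell of the Dach1OE library is not itself the target of the allele. With a single library per group there is no replicate library, no test and no p-value, and every interval given is a 95% interval of counting error only.

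Adipocytes arise in marrow from stromal cells that ensheath the sinusoids, secrete the niche factors CXCL12 and SCF (the product of Kitl) and carry the leptin receptor. In adipogenesis the early factors C/EBPβ (Cebpb) and C/EBPδ (Cebpd) lead to the expression of PPARγ (Pparg) and C/EBPα (Cebpa), which maintain one another and switch on the genes of the fat cell, while Zfp423 commits preadipocytes and the EBF proteins act upstream of Pparg. In marrow, EBF1 and EBF3 maintain the niche function of the stroma, and Ebf2 marks a progenitor population. Adipoq and Lepr, in contrast, are read as identity markers of the same stroma long before lipid is stored. Several of these genes also have roles outside the stroma, with Pparg used by capillary endothelium for fatty acid handling and Cebpa and Cebpb by myeloid cells.

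RefSeq promoter windows on GRCm38.p6 were on hand for 8 of the 10 members, as 13 start sites, and not for Cebpd and Ebf2. Pparg lies on chromosome 6 from 115360951 to 115490399 on the plus strand of GRCm38 (GENCODE vM21), is protein coding and has several start sites, whose UMIs are pooled in a value per gene. The 250 bases before the first and the third Pparg start are shown because the first serves the widely expressed transcript and the third the adipocyte-restricted isoform, and those before Adipoq because its RNA marks the stroma most sharply. They are at chr6:115360894-115361143, chr6:115421816-115422065 and chr16:23146286-23146535, all on the plus strand, and capitals mark matches to the C/EBP motif.

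Pparg, the first start: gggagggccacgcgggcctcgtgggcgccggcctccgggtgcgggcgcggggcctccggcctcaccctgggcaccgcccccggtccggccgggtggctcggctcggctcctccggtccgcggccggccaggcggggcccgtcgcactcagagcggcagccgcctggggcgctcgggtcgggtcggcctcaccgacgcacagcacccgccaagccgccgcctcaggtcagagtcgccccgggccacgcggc
Pparg, the third start: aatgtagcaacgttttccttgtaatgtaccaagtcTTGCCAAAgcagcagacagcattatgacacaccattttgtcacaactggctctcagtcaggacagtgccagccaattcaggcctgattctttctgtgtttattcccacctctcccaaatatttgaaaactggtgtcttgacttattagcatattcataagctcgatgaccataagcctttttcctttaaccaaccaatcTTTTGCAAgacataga
Adipoq start: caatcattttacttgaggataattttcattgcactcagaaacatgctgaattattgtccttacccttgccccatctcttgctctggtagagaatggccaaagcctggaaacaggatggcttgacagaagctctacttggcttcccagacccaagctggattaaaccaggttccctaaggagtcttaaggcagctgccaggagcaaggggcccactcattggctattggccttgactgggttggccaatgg

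The first Pparg window held 82.4% G and C with 38 CG pairs, against a median of 52.4% over all windows, whereas the third held 40.8% with 2 CG pairs and the Adipoq window 48.8% with no CG pair. The C/EBP motif TTGCNNAA, searched on both strands, had 2 matches in the third Pparg window, TTGCCAAA starting 215 bases and TTTTGCAA starting 16 bases before the start. It also matched in a Zfp423 window, as TTGCACAA starting 131 bases before the start, and in no other window of a member. Of all 32851 windows in the table, 9.56% held this motif. The EBF motif, TCCC and GGGA set 2 bases apart (0.779% of all windows), and the element of PPAR with RXR, a repeat of AGGNCA after 1 free base (0.338%), both also searched on each strand, were in no member's window. A match is a match of letters and was not tested for binding.

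The libraries held 28720 Control and 32028 Dach1OE cells, of which 26466 and 29317 had 500 to 6000 genes and under 25% mitochondrial UMIs (unique molecular identifiers, 1 per captured RNA molecule). Kept cells had a median of 3793.5 and 4055 UMIs. Cells were gated into classes by markers that hold no member, since the deposited tables used here carry no cell names. Of the kept cells, 1356 Control and 1629 Dach1OE cells had too few markers and 950 and 1152 tied between classes. Levels are UMIs of a gene per 1000000 UMIs of the class (CPM). Dach1, the overexpressed gene, was at 4.94 CPM in Control ECs and 199 CPM in Dach1OE ECs, a log2 ratio of 5.33 (5.10 to 5.57), and at 5.43 and 16.5 CPM in diaphyseal mesenchymal stromal cells (dpMSCs). It was also higher in osteoblasts, at 3.81 and 7.12 CPM, and in smooth muscle cells, at 1.79 and 19.2 CPM on 4 and 70 UMIs. Whether cells other than ECs express the allele themselves was not tested. In the kept cells, 879 cell indices occurred in both libraries. The mature adipocyte markers Plin1, Cidec, Plin4, Lipe, Adig, Cfd, Retn and Lep summed to 6.02 CPM in Control and 19.9 CPM in Dach1OE dpMSCs, and only 1 kept cell, in Dach1OE, passed the gate for a mature adipocyte. Cells with the marker set of a fat cell were thus almost absent from these libraries. Loss of such cells during preparation was not tested, so that this gives no count for the marrow.

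The gate found 3078 dpMSCs among 5926 stromal cells in Control and 1335 among 4829 in Dach1OE, where stromal cells are dpMSCs, metaphyseal mesenchymal stromal cells (mpMSCs), osteoblasts (OBs), osteocytes (OCYs) and septoclasts (SCs). dpMSCs were 51.9% (50.7 to 53.2) of stromal cells in Control against 27.6% (26.4 to 28.9) in Dach1OE, a difference of -24.3 percentage points (-26.1 to -22.5). OBs were 25.5% and 46.3% of stromal cells. Dissection, digestion and depletion set such shares together with biology and cannot be told apart from it in these data.

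The effector genes were the most restricted to dpMSCs. Adipoq (chromosome 16, 23146536 to 23158028, plus strand) was at 5819 CPM in Control and 4764 CPM in Dach1OE dpMSCs, against at most 39.2 CPM in any other class. Of all Adipoq UMIs in kept cells, dpMSCs held 93.9% in Control and 92.3% in Dach1OE. Each dpMSC thinned to 1000 UMIs, so that depth was equal, held an Adipoq UMI in 90.7% of Control and 84.8% of Dach1OE cells (94.6% and 89.7% without thinning). In chondrocytes, which should lack Adipoq, the thinned shares were 1.29% and 0.370%, and unthinned, at a median of 11002 and 10336.5 UMIs per cell against 2875 and 3005 in dpMSCs, they were 5.37% and 2.30%. The highest of the other classes lay close together, with mpMSCs at 39.2, smooth muscle cells at 32.7, erythroid cells at 31.5, megakaryocytes at 31.1 and ECs at 30.7 CPM in Control. Neighbours among these did not differ beyond their counting intervals, although mpMSCs lay just above ECs. The remaining classes were lower, from leukocytes at 23.9 CPM, apart from ECs, and chondrocytes at 15.9 CPM to OBs at 8.95 and OCYs at 5.18 CPM. Erythroid cells make no adiponectin, and a level in the range of these other classes was therefore read as background.

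Lepr (chromosome 4, 101717404 to 101815352, plus strand), whose product passes the leptin signal on through JAK2 and STAT3, followed dpMSCs less strictly. It was at 1516 CPM in Control and 1198 CPM in Dach1OE dpMSCs, and then at 298 and 330 CPM in SCs, the matrix-degrading cells at the growth plate, and at 168 and 147 CPM in mpMSCs. The intervals of these 3 classes did not overlap with one another in either library. ECs were at 59.8 CPM in Control, next to fibroblasts at 48.9 and pericytes at 45.9 CPM, whose intervals overlapped. dpMSCs held 77.3% of all Lepr UMIs in Control and 63.7% in Dach1OE. Relative to the Adipoq UMIs of the same class, there were 26.1 Lepr UMIs per 100 Adipoq UMIs in Control dpMSCs, 37.5 in chondrocytes and 32.5 in erythroid cells, and 195 in ECs, 198 in OBs, 242 in pericytes, 429 in mpMSCs, 618 in fibroblasts and 1568 in SCs. Leukocytes held 55.3 and smooth muscle cells 71.2 per 100 in Control. The fibroblast, pericyte and SC ratios rest on few Adipoq UMIs, 17, 24 and 25. In Dach1OE the ECs held 186 per 100 and dpMSCs 25.2.

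Among the EBF genes, Ebf3 (chromosome 7, 137193673 to 137314445, minus strand) was the dpMSC gene, Ebf2 the mural and fibroblast gene, and Ebf1 was shared. Ebf3 was at 568 CPM in Control and 466 CPM in Dach1OE dpMSCs, followed by pericytes at 115 CPM in both libraries. Ebf1 (chromosome 11, 44617317 to 45008091, plus strand) was highest in pericytes, at 701 and 700 CPM, then in dpMSCs at 634 and 533 CPM, and then in fibroblasts at 377 and 334 CPM. The Control intervals of pericytes (656 to 749) and dpMSCs (619 to 650) were apart by a narrow margin. Ebf2 (chromosome 14, 67233292 to 67430918, plus strand) was at 125 CPM in pericytes, 109 CPM in fibroblasts and 99.7 CPM in smooth muscle cells of Control, 3 neighbours whose intervals overlapped, and at 134, 131 and 119 CPM in Dach1OE. It was lower in dpMSCs, at 37.2 and 43.4 CPM, and lowest of these in mpMSCs, at 9.88 and 8.64 CPM.

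The pair of genes at the centre of adipogenesis were both shared with another lineage. Pparg was highest in ECs, at 548 CPM (540 to 557) in Control and 300 CPM (294 to 306) in Dach1OE, and ECs held 76.1% and 74.1% of all Pparg UMIs. dpMSCs at 240 and 183 CPM and pericytes at 246 and 173 CPM came next, with overlapping intervals in both libraries. Smooth muscle cells followed at 104 and 74.4 CPM and SCs at 55.4 and 41.9 CPM, while OBs (15.6 and 9.0 CPM) and chondrocytes (11.6 and 5.93 CPM) were near the low end. Cebpa (chromosome 7, 35119293 to 35121928, plus strand) was highest in leukocytes that had escaped depletion, at 388 and 372 CPM, and next in dpMSCs, at 342 and 275 CPM. No other class exceeded the 100 CPM of Control pericytes, and ECs had 13.8 and 8.90 CPM. Pparg and Cebpa RNA were therefore both high in dpMSCs, whereas ECs had Pparg with little Cebpa and leukocytes Cebpa with little Pparg (31.9 and 20.8 CPM).

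Cebpd (chromosome 16, 15887286 to 15891031, plus strand) was highest in dpMSCs at 234 and 199 CPM, followed by ECs at 182 and 147 CPM, with intervals apart in both libraries. Cebpb (chromosome 2, 167688915 to 167690418, plus strand) was highest in leukocytes at 144 and 150 CPM and next in SCs at 108 and 112 CPM, then in dpMSCs at 87.3 CPM in Control, with an interval that overlapped that of SCs, and in mpMSCs at 70.8 CPM in Dach1OE, followed there by dpMSCs at 62.0 CPM. Zfp423 (chromosome 8, 87661810 to 87959595, minus strand) was low, with 61.2 CPM in ECs and 60.1 CPM in pericytes of Control, whose intervals overlapped, and 51.0 CPM in dpMSCs. In Dach1OE the same 3 classes were at 57.1, 52.4 and 53.1 CPM with overlapping intervals. Cebpb and Cebpd lie over the protein-coding genes Tmem189 and Spidr on the opposite strand, with intronic reads counted and the use of strand not given in the sources used here. Their counts may share reads with those genes, which themselves had 364 and 219 UMIs in Control dpMSCs against 900 and 2415 for Cebpb and Cebpd. In ECs Tmem189 had 1810 and 2020 UMIs in Control and Dach1OE against 1677 and 1396 for Cebpb, so that the EC values of Cebpb are uncertain. In all, dpMSCs were the highest of the 13 classes for 4 of 10 members in Control, namely Cebpd, Ebf3, Adipoq and Lepr. The same 4 had their highest level there in Dach1OE.

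**Figure D1:**
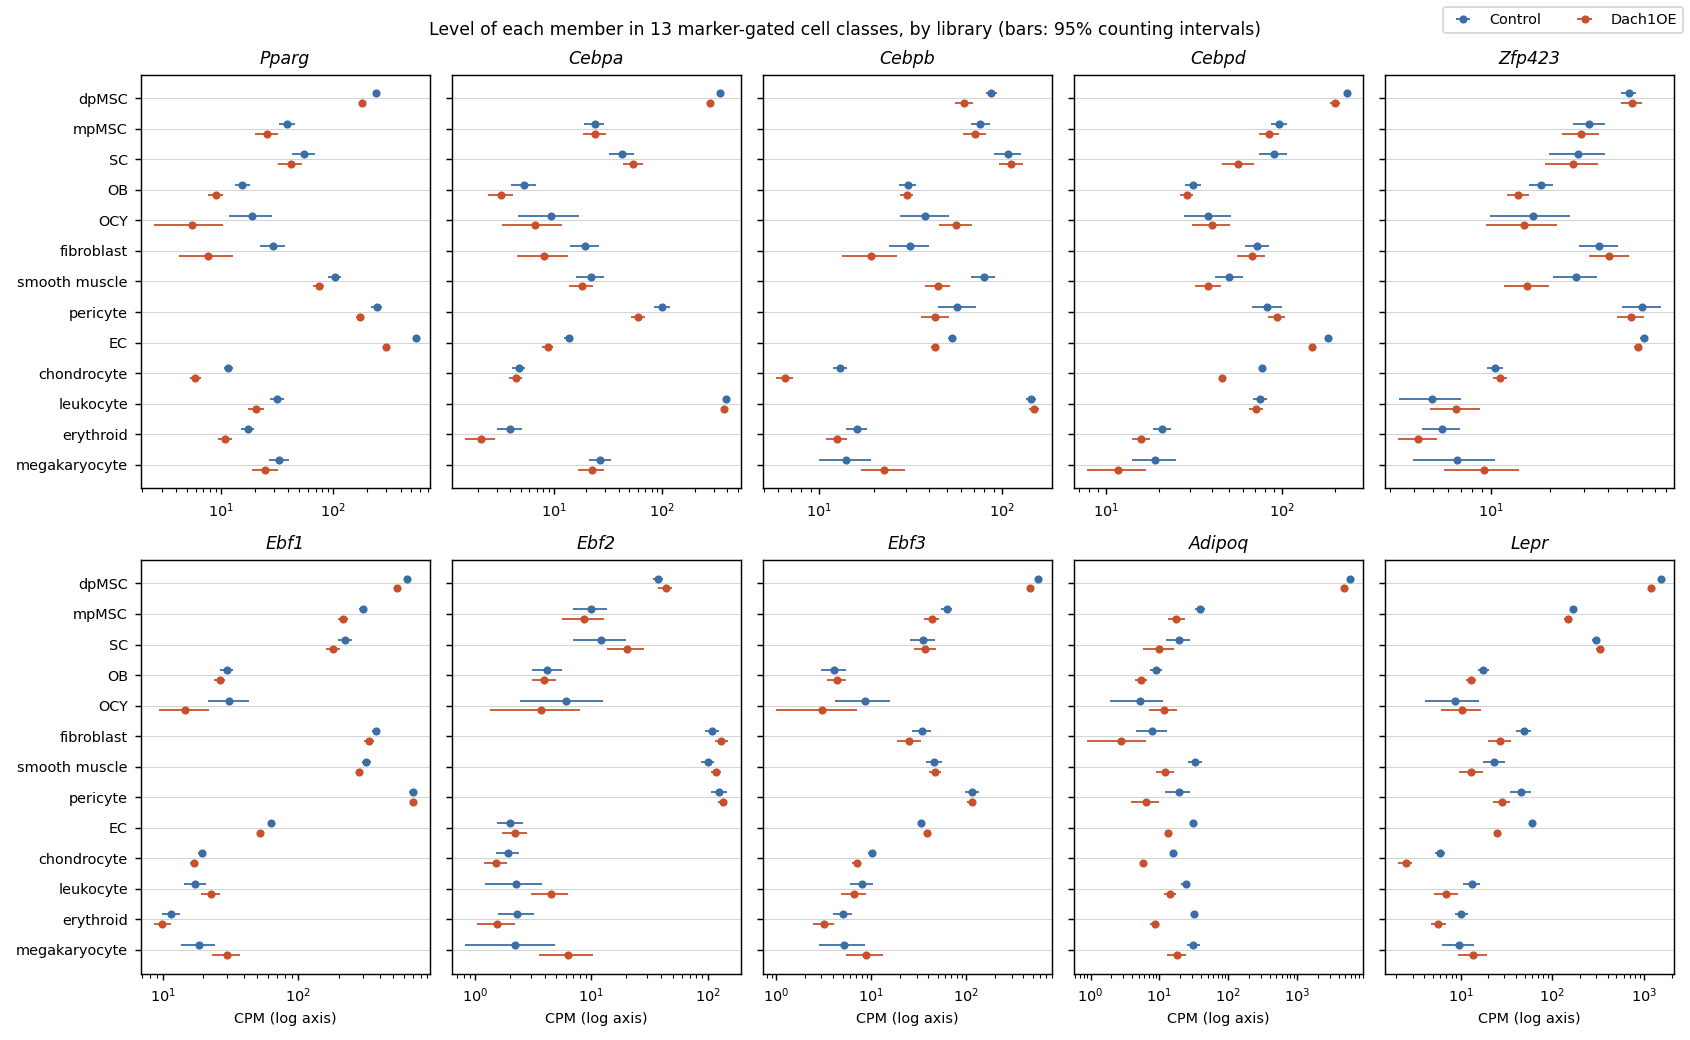
Level of each of the 10 genes in 13 cell classes (rows), as CPM on a log axis, in Control (blue) and Dach1OE (orange), with points for the pooled UMIs of a class and bars for 95% counting intervals. Adipoq stands out in dpMSCs alone (5819 and 4764 CPM), Pparg is highest in ECs (548 and 300 CPM), Cebpa is high in leukocytes and dpMSCs, and Ebf2 is highest in pericytes, fibroblasts and smooth muscle cells.

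The comparison of the libraries was made first in the stroma as a whole. With all stromal cells summed, every member was lower in Dach1OE, and 7 of 10 were at least 1.5-fold lower, namely Pparg, Cebpa, Cebpd, Ebf1, Ebf3, Adipoq and Lepr. Of 14095 genes with at least 50 UMIs in both libraries together, 12.9% were lower by this fold and 1.85% higher. Adipoq was at 2174 CPM in Control and 799 CPM in Dach1OE, a log2 ratio of -1.44 (-1.47 to -1.42), and Lepr at 608 and 242 CPM, a ratio of -1.33 (-1.37 to -1.29). Among the factors, Ebf3 (223 and 86.9 CPM) had a log2 ratio of -1.36, Pparg (104 and 41.3 CPM) of -1.34, Cebpa (135 and 53.7 CPM) of -1.33 and Ebf1 (299 and 138 CPM) of -1.12. Cebpd (118 and 64.9 CPM) followed at -0.87. The 3 members within 1.5-fold were Ebf2 at -0.57, Zfp423 at -0.53 and Cebpb at -0.43. The median log2 ratio of the members was -1.22, against -0.21 over all genes. With TMM scaling, which raised the median of all genes by 0.21 on the log2 scale, 6.79% of genes were lower and 4.90% higher, so that the share of lower genes among those past the fold went from 87.4% to 58.1%, while 7 members were past it with either scaling.

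Weighted by the gated classes, most of that difference went with the make-up of the stroma. However, 0 of the 8 dpMSC markers of the gate were higher in Dach1OE dpMSCs (sums of 51954 and 43954 CPM). A cell with lower markers may leave the class, so that make-up and level cannot be told apart by this weighting. dpMSCs gave 37.2% of stromal UMIs in Control and 16.6% in Dach1OE, and OBs, in which every member was at a lower level than in dpMSCs of the same library, 40.7% and 61.8%. When the Dach1OE levels of the 5 stromal classes were weighted by the Control shares, no member was past 1.5-fold and the median log2 ratio became -0.29, against -0.02 over all genes. Pparg was then at 77.2 CPM against 104 CPM in Control, a log2 ratio of -0.43, Adipoq at 1777 against 2174 CPM, a ratio of -0.29, and Ebf2 at 20.0 against 17.6 CPM, a ratio of 0.18. The converse, Control levels at the Dach1OE shares, gave a median of -0.84 on the log2 scale. In Cebpa, the Dach1OE make-up alone gave -1.04 of the observed -1.33.

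Within dpMSCs a smaller difference remained. The gate was less clear in Dach1OE, where 153 of 1335 dpMSCs led by only 1 marker, against 222 of 3078 in Control. By the nearest class profile, 88.0% of gated dpMSCs kept their class in Dach1OE and 91.4% in Control. The part of this in the ratios was not tested. No member was 1.5-fold lower or higher, against 3.09% of 11727 genes lower and 3.06% higher, and the median log2 ratio was -0.29, against -0.01 over all genes. The intervals of 8 of the 10 members lay below 0, against 10.2% of the genes, and an interval narrows with the UMIs of its gene. Cebpb, the early factor, had the lowest ratio, with 87.3 CPM in Control and 62.0 CPM in Dach1OE, a log2 ratio of -0.49 (-0.69 to -0.30). Pparg was at 240 and 183 CPM with a ratio of -0.39 (-0.51 to -0.28), and Cebpa at 342 and 275 CPM with a ratio of -0.31 (-0.41 to -0.22). Both members of this core pair were thus lower by a like amount. Lepr had a log2 ratio of -0.34 (-0.38 to -0.30), Adipoq of -0.29 (-0.31 to -0.27) and Ebf3 of -0.29 (-0.36 to -0.22). Ebf1 at -0.25 (-0.32 to -0.18) and Cebpd at -0.23 (-0.35 to -0.13) were close behind. Alternatives in processing and cells of a single sex gave wider spreads than these counting intervals. Lepr ran from -0.39 to -0.12 over them, Adipoq from -0.30 to -0.14 and Ebf3 from -0.38 to -0.04. The intervals of Zfp423, at 0.06 (-0.17 to 0.28), and Ebf2, at 0.22 (-0.03 to 0.47), included 0.

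Other marker lists moved beside this. The 8 dpMSC markers of the gate summed to 51954 CPM in Control and 43954 CPM in Dach1OE dpMSCs, and 0 of the 8 were higher in Dach1OE. All 8 chondrocyte markers were higher in Dach1OE dpMSCs, with sums of 5815 and 8630 CPM, in a library with more chondrocytes (4864 against 3653). The 8 OB markers summed to 4670 and 4225 CPM, with 5 of them higher in Dach1OE, and the 8 mature adipocyte markers to 6.02 and 19.9 CPM, with 7 higher and 2 at 0 in Control and 1 in Dach1OE. Among the latter, Plin1 had 16 UMIs in Control and 50 in Dach1OE, of which 27 were in a single cell. The 8 megakaryocyte markers summed to 179 and 282 CPM and the 8 endothelial markers to 600 and 659 CPM, with 7 of each higher. Their part in the lower levels of the members was not tested. Adipoq was also lower in classes where it was read as background, at 15.9 and 5.81 CPM in chondrocytes and 31.5 and 8.52 CPM in erythroid cells, in a library with fewer dpMSCs.

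**Figure D2:**
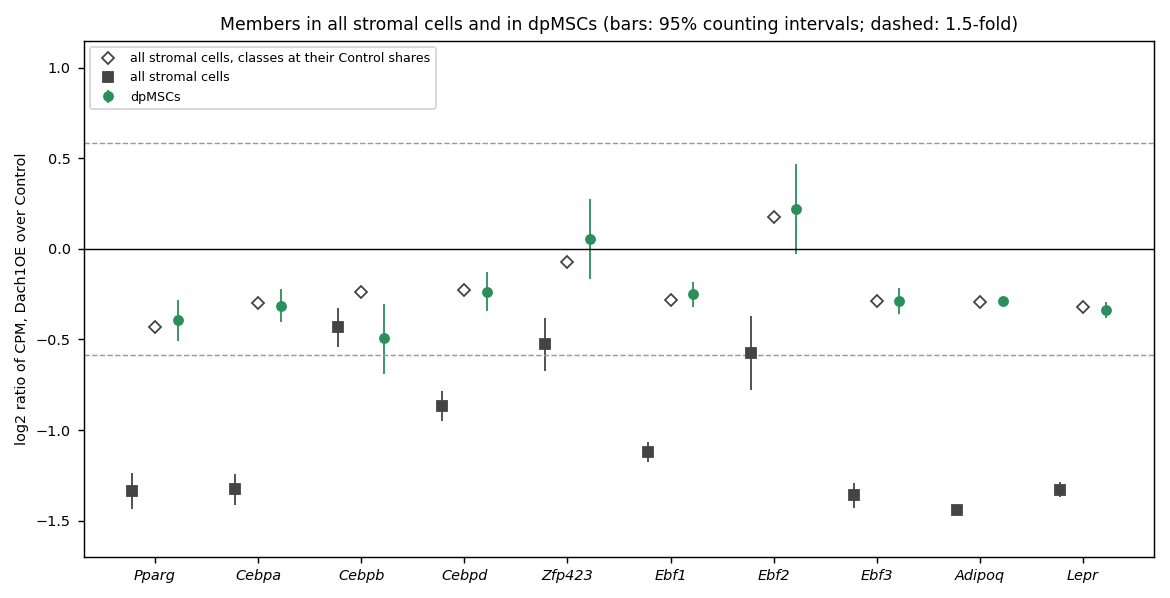
Log2 ratio of CPM, Dach1OE over Control (vertical axis), for the 10 genes, in all stromal cells (grey squares), in all stromal cells with the classes at their Control shares (open diamonds) and in dpMSCs (green circles), with 95% counting intervals as bars and 1.5-fold as dashed lines. Squares of 7 genes lie below the lower dashed line, at a median of -1.22 for all 10, whereas the diamonds and circles have a median of -0.29 each and lie between the dashed lines.

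UMIs of several members were seen in single dpMSCs. At 1000 UMIs per cell, the median dpMSC had UMIs of 3 of the 10 members in both libraries. Adipoq and Lepr were both seen in 70.1% of Control dpMSCs (68.4 to 71.7) and 59.8% of Dach1OE dpMSCs (57.0 to 62.4). Adipoq without Lepr was seen in 20.6% and 25%, Lepr without Adipoq in 4.67% and 7.09%, and neither in 4.64% (3.92 to 5.45) and 8.16% (6.73 to 9.77). Genes that are each frequent in a class are often seen in the same cell by their separate shares alone. An excess over that was not tested. The share of dpMSCs with a UMI of the factors was 20.6% and 16.2% for Pparg, 28.4% and 25.3% for Cebpa, 46.5% and 42.6% for Ebf1 and 44.5% and 40.2% for Ebf3. In chondrocytes the thinned shares for these 4 genes were at most 1.89%.

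dpMSCs were then split by their Adipoq UMIs at this fixed depth, a split set after the data had been seen. Cells with 0 to 2 Adipoq UMIs were 22.3% of Control and 34.0% of Dach1OE dpMSCs, those with 3 to 6 were 33.4% and 29.0%, and those with 7 or more 44.2% and 37.0%. Pparg was lowest in the lowest bin, at 166, 253 and 292 CPM over the bins in Control and 103, 200 and 251 CPM in Dach1OE. The intervals of its middle and highest bins overlapped in both libraries. Cebpa was graded, at 214, 333 and 440 CPM in Control and 213, 334 and 385 CPM in Dach1OE, where the intervals of the middle and highest bins overlapped. Adipoq was itself lower in Dach1OE, so that the cells of a bin were not matched between the libraries. Lepr in the lowest bin was at 1180 CPM in Control and 955 CPM in Dach1OE, in the middle bin at 1928 and 1361 CPM and in the highest at 1938 and 1702 CPM. Its middle and highest bins overlapped in Control only. Ebf3 had 480, 665 and 702 CPM in Control, with overlap of the upper bins, and 502, 579 and 605 CPM in Dach1OE, with overlap of all bins. Ebf1 was at 546, 759 and 735 CPM in Control and 480, 666 and 689 CPM in Dach1OE, with overlap of the upper bins in both. Zfp423 was not graded, at 47.1, 57.1 and 50.6 CPM in Control and 60.5, 52.6 and 59.7 CPM in Dach1OE, with overlapping intervals. Because the UMIs of a cell compete for a fixed total, and the cells of a library share their mice, these gradients describe the cells and carry no test.

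**Figure D3:**
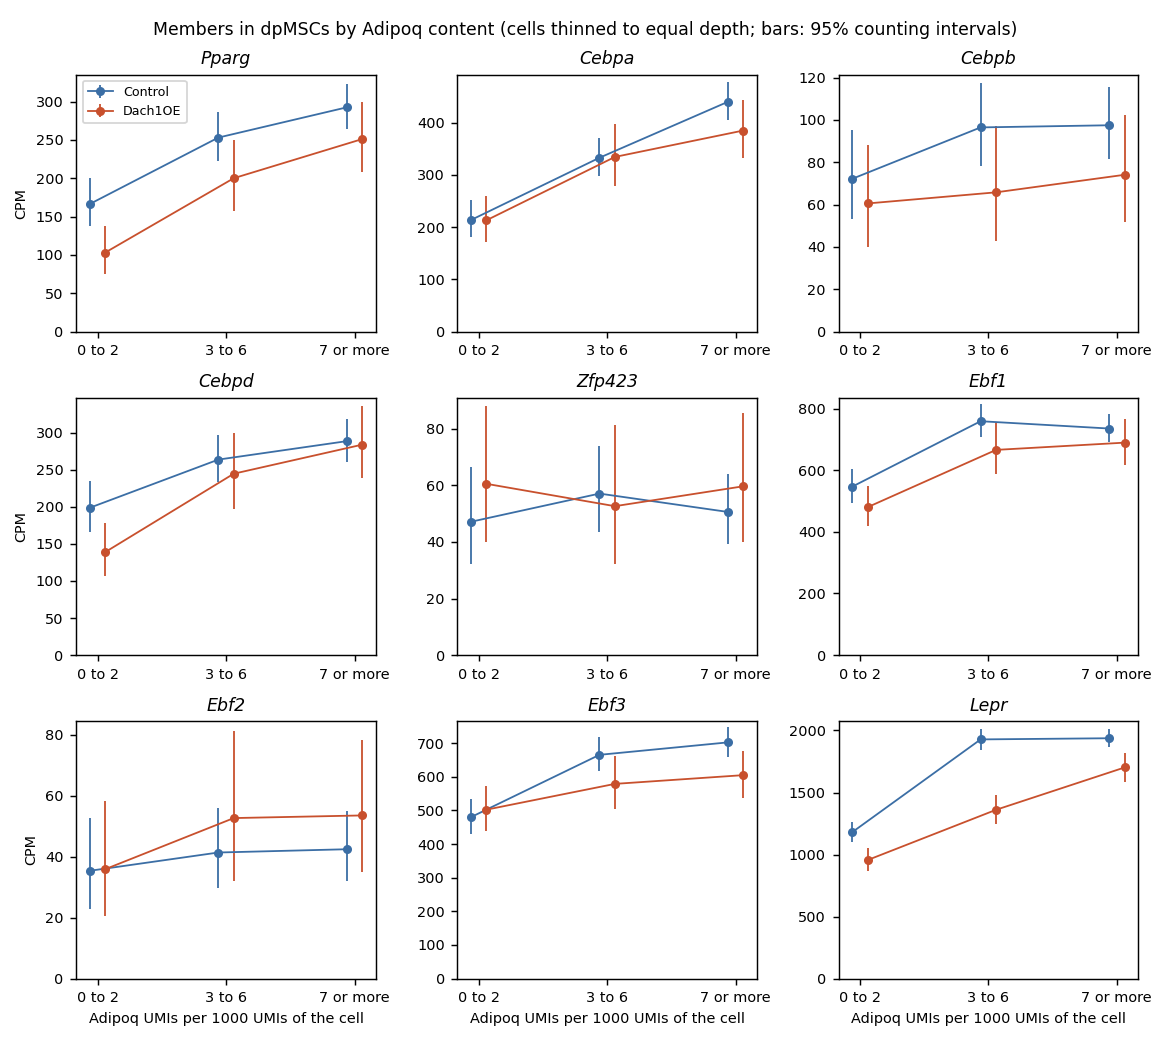
Level in CPM (vertical axes from 0) of the other 9 genes in dpMSCs with 0 to 2, 3 to 6, or 7 or more Adipoq UMIs per 1000 UMIs of the cell, in Control (blue) and Dach1OE (orange), with 95% counting intervals as bars. Pparg goes from 166 to 292 CPM in Control and from 103 to 251 CPM in Dach1OE across the bins, Cebpa from 214 to 440 and from 213 to 385 CPM, and Zfp423 stays between 47.1 and 60.5 CPM.

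In ECs, the cell class that holds the targets of the Cre driver, 4 of 10 members were at least 1.5-fold lower in Dach1OE and none higher, against 6.44% of 13866 genes lower and 8.42% higher. The median log2 ratio of the members was -0.31 in ECs, against 0.04 over all genes. Lower members were not particular to ECs, as the median was -0.65 in chondrocytes, -0.60 in erythroid cells and -0.43 in fibroblasts. Over all genes it was -0.01, 0.01 and -0.01 there. In leukocytes the members had a median of -0.07. Pparg was at 548 CPM in Control and 300 CPM in Dach1OE, with a log2 ratio of -0.87 (-0.91 to -0.83), and the thinned share of ECs with a Pparg UMI was 36.1% against 23.0%. Lepr was at 59.8 against 24.7 CPM, a ratio of -1.27 (-1.39 to -1.15), with thinned shares of 5.91% and 2.67% against 0.575% and 0.247% in chondrocytes. The other pair were Cebpa, at 13.8 and 8.90 CPM (-0.64, -0.86 to -0.42), and Adipoq, at 30.7 and 13.3 CPM (-1.20, -1.37 to -1.04), of which Adipoq was at the level read as background. Lepr was also lower in chondrocytes, at 5.97 and 2.52 CPM. Cebpa was at 3.99 and 2.13 CPM in erythroid cells and at 4.76 and 4.49 CPM in chondrocytes. The part of background in the Lepr and Cebpa values of ECs was not tested. Cebpa was within 1.5-fold in cells with Xist UMIs only, those of females, at 11.5 and 9.93 CPM (-0.22, -0.61 to 0.17), and at 16.2 and 8.08 CPM in cells with Y-linked UMIs only (-1.01, -1.43 to -0.59). Cebpb at -0.31, Cebpd at -0.30, Ebf1 at -0.28 and Zfp423 at -0.10 were lower with intervals below 0, as were those of 20.5% of the genes, while those of 29.5% lay above 0. Ebf3 was the exception with a log2 ratio of 0.21 (0.09 to 0.33), from 33.3 to 38.6 CPM, and Ebf2 was at 2.01 and 2.19 CPM. Leprot, which lies just upstream of Lepr on the same strand and encodes another protein, was at 385 and 346 CPM in ECs and 268 and 267 CPM in dpMSCs. The 8 pericyte markers summed to 1528 and 694 CPM in ECs, with 6 higher in Dach1OE, and the 8 dpMSC markers to 753 and 956 CPM, with 2 higher. The osteoblast markers summed to 331 and 557 CPM (8 of 8 higher), the osteocyte markers to 66.2 and 167 CPM (6 of 8), the chondrocyte markers to 1777 and 2866 CPM (8 of 8) and those of proliferating cells to 276 and 395 CPM (8 of 8). The septoclast markers were at 2755 and 1744 CPM (2 of 6 higher) and those of metaphyseal stromal cells at 173 and 118 CPM (4 of 8). Their part in the EC values was not tested.

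ECs differ along the vessel tree, and Stab2, a scavenger receptor gene of sinusoidal ECs, was used to split them, a choice made after the data had been seen. Stab2 itself was at 827 CPM in Control and 466 CPM in Dach1OE ECs, and thinned ECs with a Stab2 UMI were 48.2% of Control and 30.6% of Dach1OE ECs. An EC without a Stab2 UMI at this depth may still express Stab2. Pparg was higher in ECs with a Stab2 UMI, at 694 CPM against 370 CPM without in Control, and at 540 against 210 CPM in Dach1OE. Between libraries the log2 ratio of Pparg was -0.36 (-0.45 to -0.27) with a Stab2 UMI and -0.82 (-0.92 to -0.71) without. Since Stab2 was itself lower in Dach1OE, the cells on a side were not matched between the libraries, and these values describe the split only. With the split held at its Control share the ratio was -0.51, against -0.76 in the same thinned cells as observed, so that Pparg was then within 1.5-fold.

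The other members took other courses over the split. Lepr was at 51.2 CPM with and 85.7 CPM without a Stab2 UMI in Control, and at 29.8 and 28.7 CPM in Dach1OE, with log2 ratios of -0.78 with and -1.58 without, and -1.24 with the Control share. Cebpd was at 204 and 228 CPM with a Stab2 UMI, a ratio of 0.16 (0.01 to 0.31), and at 150 and 111 CPM without, a ratio of -0.43 (-0.58 to -0.28). With the Control share its ratio was -0.07. Ebf1, in contrast, was higher in ECs without a Stab2 UMI, at 110 CPM against 43.9 CPM with one in Control and 75.8 against 30.5 CPM in Dach1OE. The part of RNA from other cells in this was not tested. Ebf3 had log2 ratios of -0.01 and 0.04 on the 2 sides, each with an interval that included 0, and 0.09 in the same thinned cells before the split. Within Dach1OE ECs, those in which a Dach1 UMI was seen (17.5% of thinned cells) had Pparg at 309 CPM and the others at 312 CPM, a log2 ratio of -0.01 (-0.15 to 0.13). Lepr was at 21.2 and 30.8 CPM, a ratio of -0.54 (-1.09 to -0.02) on few UMIs, and the intervals of the other 6 genes split in this way included 0. A cell without a Dach1 UMI at this depth may still carry the allele.

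**Figure D4:**
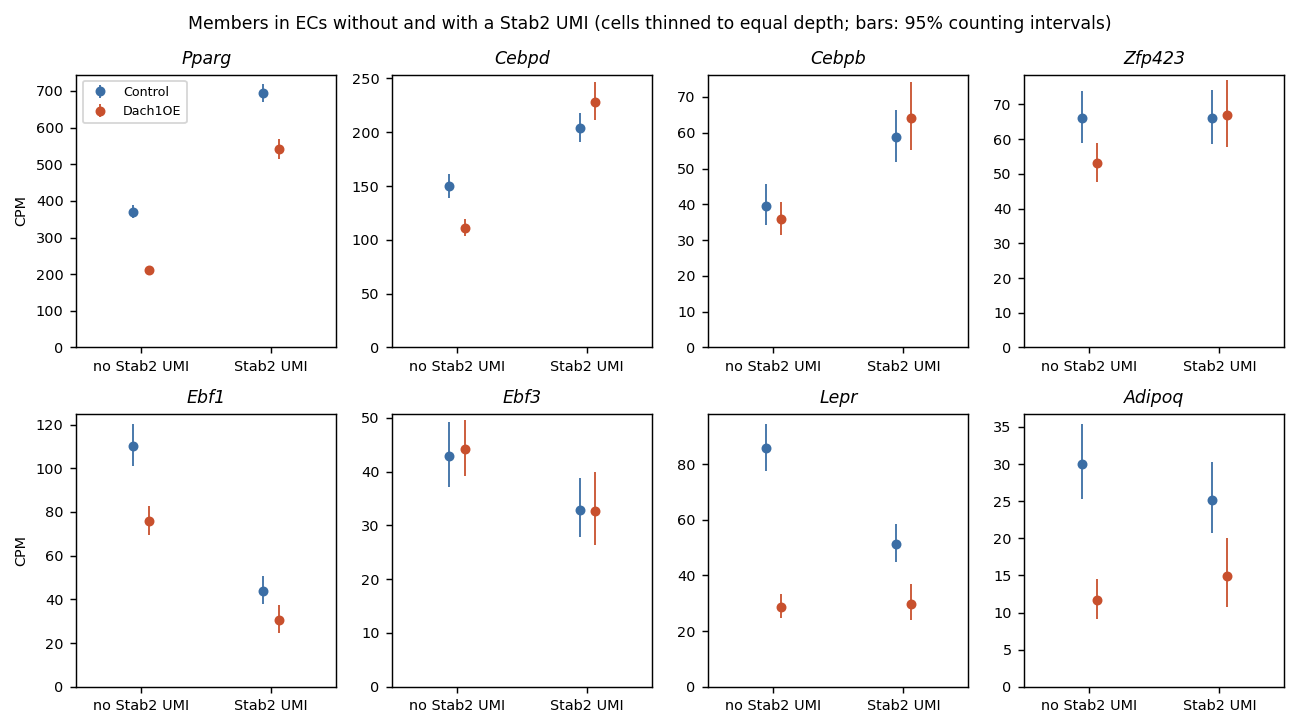
Level in CPM (vertical axes from 0) of 8 of the genes in ECs without and with a Stab2 UMI, in cells thinned to 1000 UMIs, for Control (blue) and Dach1OE (orange), with 95% counting intervals as bars. Pparg is higher with Stab2 in both libraries (694 against 370 CPM in Control) and lower in Dach1OE on both sides, Ebf1 is higher without Stab2, and the Lepr values of the libraries are farthest apart without Stab2 (85.7 and 28.7 CPM).

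In the other classes of interest the levels were lower and the counts smaller. In mpMSCs, 2 of 10 members were 1.5-fold lower, against 3.70% of 9837 genes lower and 2.85% higher: Adipoq at 39.2 and 17.6 CPM, a log2 ratio of -1.16 (-1.65 to -0.68), and Pparg at 39.0 and 25.9 CPM, a ratio of -0.59 (-1.01 to -0.17). This Pparg ratio was near the threshold and was within 1.5-fold with TMM factors (-0.56), under 10% mitochondrial UMIs (-0.43) and with the nearest class profile (-0.44), and in Xist cells Pparg was at 26.6 and 29.9 CPM, a ratio of 0.17 (-0.53 to 0.86). Ebf1 (301 and 214 CPM) and Ebf3 (62.6 and 43.5 CPM) had ratios of -0.49 and -0.52 with intervals below 0, whereas Lepr at -0.20 (-0.38 to -0.02) was closer to 0. In mpMSCs the smooth muscle markers summed to 502 and 351 CPM (3 of 8 higher) and the dpMSC markers to 2709 and 2069 CPM (4 of 8). The erythroid markers were at 44.4 and 25.6 CPM (0 of 8) and the chondrocyte markers at 5459 and 6437 CPM (5 of 8). Their part in the mpMSC values was not tested. In OBs, 3 of 10 members were 1.5-fold lower, against 3.20% of 11806 genes lower and 2.29% higher, all at low levels: Pparg (15.6 and 9.0 CPM), Adipoq (8.95 and 5.41 CPM) and Cebpa (5.32 and 3.31 CPM), with log2 ratios of -0.79, -0.73 and -0.69. Pparg was within 1.5-fold in Y cells, with a ratio of -0.45 (-1.11 to 0.23), against -0.98 (-1.58 to -0.39) in Xist cells. In Dach1OE, Adipoq in mpMSCs (17.6 CPM, 13.1 to 23.2) was above erythroid cells (8.52 CPM, 7.25 to 9.94) and close to megakaryocytes (17.9 CPM). The Adipoq values of both classes lie in the range read as background, which was taken from Control. In OBs the other pair were at such levels too, since Pparg was at 17.3 and 10.96 CPM in erythroid cells and at 11.6 and 5.93 CPM in chondrocytes (ratios of -0.66 and -0.97), and Cebpa at 3.99 and 2.13 CPM in erythroid cells and at 4.76 and 4.49 CPM in chondrocytes. The 8 chondrocyte markers summed to 7586 and 10444 CPM in OBs, with 8 higher in Dach1OE, and their part in these values was not tested. In SCs, 1 of the 8 members with enough UMIs was 1.5-fold lower, against 4.42% of 7447 genes lower and 4.31% higher. This was Cebpd, at 89.6 and 56.3 CPM, a log2 ratio of -0.67 (-1.08 to -0.26), while Lepr was at 298 and 330 CPM, a ratio of 0.15 (-0.04 to 0.34). The chondrocyte markers summed to 2251 and 6398 CPM in SCs, with 8 of 8 higher in Dach1OE, and the endothelial markers to 418 and 291 CPM, with 0 of 8 higher. Their part in the SC values was not tested.

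In mural cells, that is, smooth muscle cells and pericytes together, 3 of 10 members were 1.5-fold lower, against 3.39% of 10929 genes lower and 3.59% higher. They were Adipoq at 27.7 and 9.42 CPM, again in the background range, Cebpb at 71.1 and 43.9 CPM, a log2 ratio of -0.70 (-0.94 to -0.45), and Lepr at 31.4 and 20.2 CPM, a ratio of -0.64 (-1.01 to -0.26). Cebpb was within 1.5-fold in Xist cells, with a ratio of -0.34 (-0.85 to 0.19), against -1.21 (-1.75 to -0.66) in Y cells. Of the EBF genes, Ebf1 was at 457 and 476 CPM, a ratio of 0.06 (-0.03 to 0.15), and Ebf2 at 109 and 126 CPM, a ratio of 0.21 (0.03 to 0.39). The mix differed, since pericytes were 400 of 1167 mural cells in Control and 984 of 2462 in Dach1OE. In smooth muscle cells alone 4 of 10 members were 1.5-fold lower, against 4.12% of 9342 genes lower and 4.05% higher. They were Adipoq, at 32.7 and 12.1 CPM in the background range, Cebpb at 79.2 and 44.5 CPM, a ratio of -0.83 (-1.15 to -0.52), Lepr at 23.3 and 13.2 CPM, a ratio of -0.82 (-1.42 to -0.23), and Zfp423 at 27.3 and 15.4 CPM, a ratio of -0.83 (-1.38 to -0.28). Lepr was lower too in leukocytes (13.2 and 7.04 CPM), erythroid cells (10.2 and 5.75 CPM) and chondrocytes (5.97 and 2.52 CPM). The part of background in the Lepr values of smooth muscle and mural cells was not tested. Zfp423 had a ratio of -0.27 (-0.58 to 0.05) in mural cells as a whole. Ebf1 in smooth muscle cells was at 319 and 282 CPM, a ratio of -0.18 (-0.32 to -0.04), and Ebf2 was at 99.7 and 119 CPM, a ratio of 0.25 (0.01 to 0.49). Within pericytes alone Ebf1 was at 701 and 700 CPM and Ebf3 at 115 CPM in both. In pericytes, 2 of the 9 members with enough UMIs were 1.5-fold lower, against 3.92% of 8931 genes lower and 4.84% higher. They were Cebpa at 100 and 60.3 CPM, a ratio of -0.74 (-1.07 to -0.40), and Lepr at 45.9 and 28.3 CPM, a ratio of -0.70 (-1.19 to -0.20), while Pparg was at 246 and 173 CPM, a ratio of -0.51 (-0.71 to -0.30). In pericytes the smooth muscle markers summed to 6100 and 4227 CPM, with 1 of 8 higher in Dach1OE, and those of proliferating cells to 468 and 593 CPM, with 8 of 8 higher. Their part was not tested. Dach1 itself was at 4.57 and 19.4 CPM in mural cells, a log2 ratio of 2.09 (1.34 to 2.94) on 16 and 132 UMIs, and its part in these values was not tested. Ebf1 thus had close to equal levels in the pericytes of both libraries and a ratio of -0.25 in dpMSCs. That difference between classes was not tested.

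Sex could be told for part of the cells, and since each pair of mice is taken as 1 female and 1 male, cells of a sex compare single mice. In dpMSCs with Xist UMIs only, Adipoq was at 5929 CPM in Control and 5000 CPM in Dach1OE, and in those with Y-linked UMIs only at 5296 and 4565 CPM. Pparg was at 239 and 185 CPM in the former and 241 and 181 CPM in the latter. Both values of these genes were lower in Dach1OE, and the Pparg values of the Control cells of either sex were close to each other. Lepr was at 1469 and 1355 CPM in Xist cells, a log2 ratio of -0.12, and at 1458 and 1120 CPM in Y cells, a ratio of -0.38. Ebf3 had ratios of -0.38 and -0.04, Cebpd of -0.01 and -0.45, and Cebpb of -0.11 (-0.45 to 0.22) and -0.48 (-0.86 to -0.10), so that Cebpb was not the lowest in Xist cells. Ebf2 was at 39.7 and 41.5 CPM in Xist cells and 32.2 and 54.6 CPM in Y cells, where its ratio of 0.76 (0.24 to 1.29), on 68 and 60 UMIs, was past 1.5-fold in the other direction. Of the 10 members, 8 were lower and 1 higher in both sexes in dpMSCs, against 26.7% and 26.4% of 10710 genes. In ECs 8 were lower and 1 higher in both sexes, against 29.3% and 41.8% of 12910 genes. In ECs, Pparg was at 512 and 309 CPM in Xist cells and 611 and 294 CPM in Y cells, with log2 ratios of -0.73 and -1.05, and Lepr had ratios of -1.05 and -1.51. With a mouse per sex and library, sex, mouse and group cannot be told apart in these spreads.

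**Figure D5:**
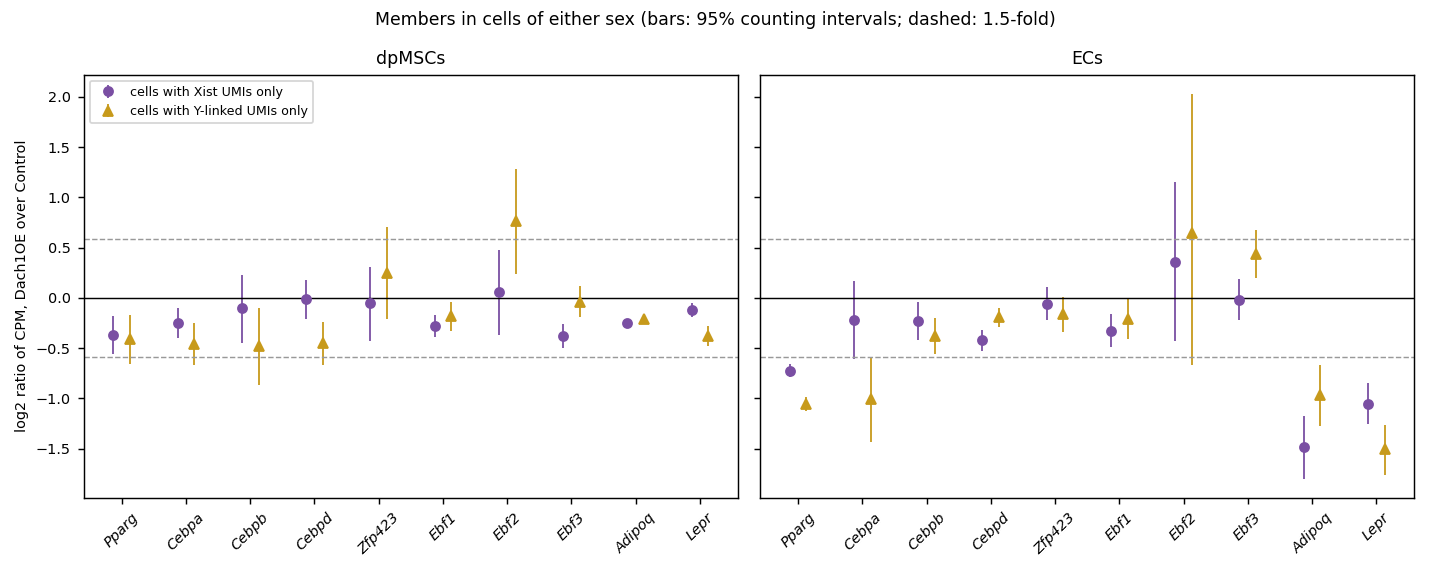
Log2 ratio of CPM, Dach1OE over Control (vertical axis), for the 10 genes in dpMSCs (left) and ECs (right), from cells with Xist UMIs only (circles) and cells with Y-linked UMIs only (triangles), with 95% counting intervals as bars and 1.5-fold as dashed lines. In dpMSCs the Pparg points are at -0.37 and -0.41 and the Adipoq points at -0.25 and -0.21, while the Lepr points in ECs are at -1.05 and -1.51.

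Other genes of the pathway were taken from 7 lists. In dpMSCs, of the genes with enough UMIs, 0 of 5 other C/EBP, PPAR and EBF family genes, 0 of 12 other activators of adipogenesis and 0 of 6 brakes on adipogenesis were past 1.5-fold, with median log2 ratios of -0.08, 0.11 and -0.12. Of 12 lipid and adipocyte effector genes, 1 was lower and 1 higher, with a median of 0.11. The lower was Cd36, a fatty acid transporter also abundant in endothelium, at 76.9 and 33.2 CPM, a log2 ratio of -1.21, seen in 260 of 3078 Control and 66 of 1335 Dach1OE dpMSCs. The higher was Plin1, which coats lipid droplets, with 16 UMIs in 11 Control cells and 50 UMIs in 11 Dach1OE cells, 27 of them in a single cell. None of the 9 marrow stromal identity factors, 9 marrow niche ligands and 10 genes of leptin and adiponectin signalling was past 1.5-fold, with medians of -0.11, -0.27 and -0.04. The niche ligands, of which Cxcl12 and Kitl are also markers of the gate, had the median closest to that of the members.

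In all stromal cells, where the make-up differs and 12.9% of all genes were lower by this fold (6.79% with TMM scaling), 9 of 9 niche ligands were 1.5-fold lower, with a median log2 ratio of -1.35, led by Vcam1, an adhesion molecule for leukocytes (575 and 189 CPM, -1.60), Grem1, a BMP antagonist (164 and 58.1 CPM, -1.50), Kitl (-1.48) and Il7, the cytokine of B cell development (-1.37). Of 9 identity factors 4 were lower, and 2 with TMM scaling, namely Snai2 (-1.06) and Foxc1 (-0.82) with both and Tbx18 (-0.59) and Nfia (-0.59) with the class total, while Sp7 and Runx2, the factors of the osteoblast lineage, were at 0.30 and -0.15. Of 16 other activators 6 were lower, with Klf15 (-0.95), Rxrg (-0.88), Stat5a (-0.81) and Egr2 (-0.70) the farthest and a median of -0.43. With TMM scaling 3 were lower, Egr2 no longer among them, and Klf4 was higher (0.66). Of 8 brakes, Nr2f2 was lower (-0.83) and Dlk1 higher (0.65). Of 13 lipid and effector genes, Cd36 (-1.93), Lpl (-1.43, a marker of the gate) and Fabp4 (-0.96) were lower and Plin1 higher (1.57). With TMM scaling the same 3 were lower, and Fasn and Scd1 (both 0.59), enzymes of fatty acid synthesis and desaturation, were higher as well. Of 10 leptin and adiponectin signalling genes only Socs3, the feedback inhibitor of the receptor, was lower (-0.71), which is near the share of all genes and was 0 of 10 with TMM scaling, and 0 of 7 other family genes were. The medians of the brakes, lipid genes, signalling genes and family genes were -0.30, -0.22, -0.33 and -0.30, against -0.21 over all genes.

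The genes whose profile was most like that of each member were found by Pearson's correlation of log2(CPM + 10) over 26 profiles, 13 classes in 2 libraries, which share their cells and mice, so that r is a description. Adipoq was most like Esm1 (r = 0.99), Cbln1 and Marc1 (both 0.98). Lepr was most like Pappa (0.97), Aldh1a2 (0.96) and Hmgcll1 (0.95), and Ebf3 like Kitl and Lpl (both 0.95, both markers of the gate) and Abat (0.94). These are dpMSC profiles. Pparg was most like Adgrf5 (0.97), Slfn5 and Phf11d (both 0.95), in a profile led by ECs, and Cebpa like Trim5 (0.93), Gpr171 and Zc3h12a (both 0.92), with leukocytes first. Ebf1 was most like Nfatc4 (0.97), Rbms3 and Zfp703 (both 0.95), and Ebf2 like B3galnt1, C1qtnf7 and C1qtnf2 (all 0.96). For Zfp423 they were Psap, Tnfrsf1a (both 0.95) and Sbf2 (0.94), for Cebpd Txndc12 (0.92), Wdfy2 and Unc93b1 (both 0.91), and for Cebpb Bckdha (0.87) and Irf2bp2 (0.86). Among the members themselves the closest pairs were Ebf1 with Ebf3 (0.86) and Ebf1 with Ebf2 (0.85), and the farthest was Adipoq with Ebf2 (0.14).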

How the data were processed

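The data are scRNA-seq libraries made with the BD Rhapsody system from femur and tibia of mice, 1 Control and 1 Dach1OE, after removal of the epiphysis, collagenase digestion, crushing and magnetic depletion of lineage, CD45 and CD117 cells. The authors deposited counts per cell and gene. Per the file headers the pipeline was BD Rhapsody WTA Analysis (version 1.11) on GRCm38 with the annotation GENCODE vM19, and intronic reads were counted. The methods name another version of it. The deposited counts were used as given, as UMIs after the pipeline's error correction, with raw UMIs as an alternative.

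The cell filters (500 to 6000 genes, under 25% mitochondrial UMIs) follow the study. A marker was counted in a cell where its UMIs exceeded 2 times what its mean level gives at the depth of the cell, and a cell took the class with the most such markers, with at least 3. Ties and cells with fewer markers took no class. Names therefore mean marker-gated cells and need not match those of the study. No doublet caller was run, and an alternative left out cells with 3 or more markers of a second class.

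UMIs were summed per class and library and divided by the class total (CPM), with exact Poisson intervals, and ratios have exact intervals from the binomial split of the UMIs. Shares have exact binomial (Clopper-Pearson) intervals, and their difference a Newcombe interval. Differences between mice are not covered. With 1 library per group, a gene was called at 1.5-fold or more among genes with at least 50 UMIs in both libraries together. Shares of cells with a UMI were compared after thinning to 1000 UMIs, which left out 39 Control and 23 Dach1OE dpMSCs and 262 and 369 ECs. The text names all 10 members in every main comparison, list genes past 1.5-fold in dpMSCs or all stromal cells (at most 4 a list), genes a result turns on and, for each member, the 3 genes with the most similar profile among those with at least 200 UMIs. One of these genes is not reported here. Cebpb/Tmem189 and Cebpd/Spidr, Leprot, Sp7, Runx2, Klf4, Fasn and Scd1 were chosen with values in view. The members, lists and markers were chosen with earlier results of these data known. Coordinates come from GENCODE vM21 on GRCm38 and promoter sequences from RefSeq on GRCm38.p6. Alternatives were raw UMIs, TMM factors (edgeR 4.0.16 in R 4.3.3), no minimum of UMIs, under 10% mitochondrial UMIs, 1000 to 6000 genes, 4 markers, the nearest class profile, cells of either sex, thinned cells, Lpl left out of the markers and Control shares, and, added after the data were seen, cell indices found in both libraries left out. Python 3.11.15 with numpy 2.4.6, pandas 2.3.3, scipy 1.17.1 and matplotlib 3.10.9 was used.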

Additional observations from a re-analysis of the deposited data

Results flagged for a closer look

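Ebf3 differed in direction between classes. Its log2 ratio, Dach1OE over Control, was -0.29 in dpMSCs and -0.52 in mpMSCs but 0.21 in ECs, where the interval was 0.09 to 0.33. The difference between these classes was not tested. In ECs the ratio was -0.02 in cells with Xist UMIs only and 0.43 in cells with Y-linked UMIs only, and it was 0.04 in ECs without and -0.01 in ECs with a Stab2 UMI.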

How the results depend on the processing

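No paired analysis was possible because each group has a single library. In ECs, 4 members were 1.5-fold lower under every alternative that recomputed this count but only Xist cells, with 3, where Cebpa was at -0.22. With ECs at their Control share of Stab2 cells, Pparg was within 1.5-fold (-0.51). dpMSCs had the highest level for 4 or 5 members under all those run for it. In dpMSCs, 1 member was 1.5-fold lower in place of 0 with under 10% mitochondrial UMIs and with cells of a second class left out, Cebpb both times (-0.61 and -0.70), Ebf2 was higher in only Y cells (0.76), and the median went from -0.29 to -0.18 in only Xist cells. In all stromal cells, the count of 7 became 0 with the classes at their Control shares and was 6 to 8 otherwise, and the median of -1.22 became -0.29 at the Control shares, -1.02 with TMM factors, -1.11 with the nearest profile, -1.35 with cells of a second class left out, -1.02 in only Xist cells and -0.96 in thinned cells. The difference in dpMSC share, -24.3 points, was -29.4 under 10% mitochondrial UMIs, -21.9 in Xist cells and -27.0 in Y cells. The small counts in mpMSCs, OBs and mural cells were less stable. The 2 members in mpMSCs (0 to 3 over the alternatives) became 1 with TMM factors, the nearest profile, thinning or shared indices left out and 0 in only Xist cells, where Pparg reversed to 0.17 (-0.53 to 0.86) from -0.59 and Cebpa was higher (0.98, 0.18 to 1.80). The 3 in OBs became 1 with cells of a second class left out or thinned, 5 in Xist cells and 0 in Y cells. The 3 in mural cells (1 to 4) became 1 with cells of a second class left out, in Xist cells and with thinning. The causes were not tested, except that thinned and single-sex cells hold fewer UMIs. Of 130 recomputed values of members in dpMSCs, 108 lay in the interval of the reported value, of 128 in ECs 109, and of 130 in all stromal cells only 82.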
